A study of Arabidopsis thaliana with 13 samples.

Results

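The lethal cross 2xX6x was compared with the viable cross 2xX4x, both with an excess of paternal genomes, to see which transcripts differ when the same mother is pollinated by a father of higher ploidy. The comparison uses 4 of the 13 Affymetrix ATH1 arrays of the series, which are the 2 arrays of each cross. Crosses are named with the seed parent first, so that in both of them a diploid C24 plant carrying the male-sterility transgene A9-barnase was the mother. Pollen came from a tetraploid C24 father in 2xX4x and from a hexaploid Col-1 father in 2xX6x. The labels list no modification of either father, although the tetraploid C24 stock was an A9-barnase line of which fertile segregants served as pollen parents. Ploidy and accession of the father therefore changed together and cannot be told apart. Whole siliques were taken 5 days after pollination in every group used below, except for the unreplicated msi1 array, and each sample was pooled from several plants. Beside them stand 2xX2x (the same diploid mother and a diploid C24 father), 4xX2x (a tetraploid C24 A9-barnase mother and a diploid C24 father), 6xX2x (a lethal maternal excess, with a hexaploid Col-1 mother with no listed modification and a diploid C24 father) and fis1X2x, in which a Ler mother homozygous for fis1-3, a mutation of the Polycomb gene MEDEA, was pollinated by diploid C24. The single msi1 array holds unfertilized siliques at 7 days after flower opening. The study took them from male-sterile F1 plants that carried the Polycomb mutation msi1-2, after a cross of the mutant with the C24 A9-barnase line.

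In flowering plants the endosperm is the second product of fertilization and feeds the embryo. In Arabidopsis it first divides as a syncytium and then forms cells, and the balance of maternal and paternal genomes sets how far it proliferates before it does so. An excess of paternal genomes is known for prolonged proliferation, large chalazal endosperm and late cell formation, and where the excess is strong the endosperm does not form cells and the seed aborts. Mutants of the FIS class of Polycomb proteins show a similar overgrowth without any change of ploidy.

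The values are signal intensities without units. Median signals lay between 42.5 and 46.2 on the 4 arrays, and the 3' to 5' signal ratio of the actin control, a sign of RNA quality, was 2.19 and 2.74 in 2xX4x and 2.13 and 4.44 in 2xX6x. The first array of 6xX2x stood apart with an actin ratio of 17.3, against 0.561 to 4.44 on the other 12. RNA of the silique wall and of the seed coat was in each sample, and in such bulk samples fewer cells of a type and less RNA per cell cannot be told apart. The summed signal of the green tissue markers RCA and LHCB4.1 was 6876 and 5782 in 2xX4x and 6052 and 7973 in 2xX6x, and that of the seed coat markers DFR and BAN was 1935 and 2594 against 1843 and 2989, so the crosses overlapped in both. All 5 measured pollen markers had a higher mean in 2xX6x without passing the test (median log2 difference 0.52), none was at 0, and their summed signal was 162 and 214 in 2xX4x against 319 and 251 in 2xX6x. Its part in the results was not tested. Of the embryo regulators, BBM had a probe set of its own, with a signal between 1.5 and 3.8 on the 4 arrays, and it was not tested.

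Few probe sets passed the test between the lethal and the viable cross. After limma and Benjamini-Hochberg adjustment over 15982 probe sets, 54 passed an adjusted p of 0.05, or 0.338% of those tested. Of these, 30 were higher in 2xX6x (0.188%) and 24 were lower (0.15%). A fit of the 4 compared arrays alone called 40, of which 29 were higher and 11 lower and 32 were among the 54. Before adjustment 586 probe sets had a limma p under 0.05, against 799 that 5% of all would give. With the compared arrays alone they were 899. All crosses shared 1 estimate of spread, although their replicates differed unequally. The root mean square log2 difference of replicates was 0.431 in 2xX4x and 0.606 in 2xX6x, and up to 0.702 in 2xX2x. The count of calls therefore depends on how the spread was estimated. The median log2 difference over all probe sets was -0.01, and 48.4% of them were above 0, as the scaling of each array sets the overall level. Differences that passed ran from 3.3-fold to 41.0-fold among the higher sets and from 2.5-fold to 21.2-fold among the lower ones, on the scale of log2(signal + 7.4), which understates the change of dim probe sets. Both arrays of one cross lay beyond both of the other in all 54, which also held for 31.7% of all probe sets tested, and for 7.77% together with a log2 difference of at least 0.6. The platform annotation gave 1 gene for 16 of the higher and 12 of the lower sets, several genes for 7 and 1, and no gene for 7 and 11. Only the 28 single-gene sets are described by name, and they are spread over all 5 chromosomes.

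**Figure D1:**
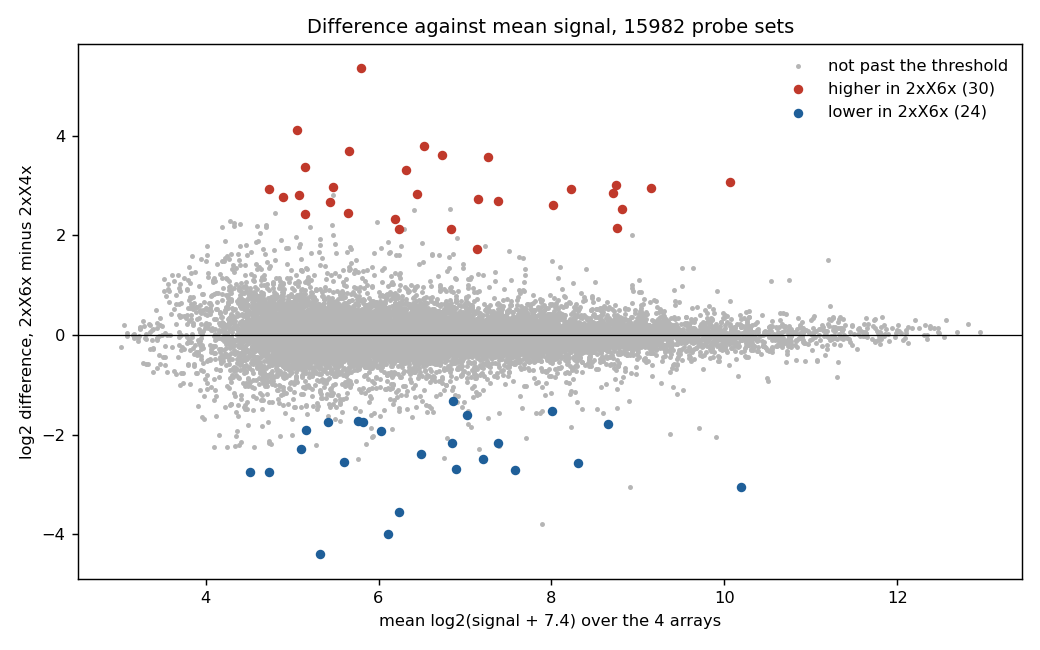
Log2 difference of 2xX6x minus 2xX4x (vertical axis) against the mean log2(signal + 7.4) of the 4 arrays (horizontal axis) for 15982 probe sets, 1 point each. The 30 sets past the threshold and higher in 2xX6x are red, the 24 lower ones blue, and the cloud of the others is centred near the median of -0.01.

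The higher genes are described first, in an order by annotation that was not tested as a grouping. AT3G24510, which encodes a defensin-like protein, had signals of 217 and 178 in 2xX4x and of 1589 and 1552 in 2xX6x. Both 2xX6x arrays were far above both 2xX4x arrays, and the difference was 2.95 ± 0.38 (SE, log2; limma adjusted p = 0.00839). AT5G54220, also annotated as defensin-like, was measured at 265 and 123 in 2xX4x and at 1285 and 899 in 2xX6x (2.52 ± 0.39, limma adjusted p = 0.0183). LCR59, one of the low-molecular-weight cysteine-rich proteins that resemble defensins, was close to the floor of the array in the viable cross, at 3.0 and 8.3, and reached 76.0 and 89.2 in the lethal one (2.81 ± 0.43, limma adjusted p = 0.0183). AT2G06090, a relative of the S1 self-incompatibility proteins of poppy, rose from 24.6 and 25.8 to 164 and 151 (2.34 ± 0.29, limma adjusted p = 0.00651). In none of these genes did the arrays of the crosses overlap, as in all 54 sets and in 31.7% of all probe sets tested. AT5G24316, which encodes a proline-rich protein, had 82.7 and 114 in 2xX4x against 639 and 624 in 2xX6x (2.61 ± 0.27, limma adjusted p = 0.00464).

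A plant defensin went the other way. PDF2.1 was measured at 55.5 and 68.2 in 2xX4x and at 0.6 and 5.9 in 2xX6x, so that the signal all but vanished in the lethal cross (-2.74 ± 0.44, limma adjusted p = 0.026). LCR24 and LCR69, other members of this class, had 297 and 188 against 897 and 1056, and 1408 and 1793 against 476 and 388. Neither passed the test (limma adjusted p = 0.0974 and 0.249), although their arrays did not overlap, as was the case for 31.7% of all probe sets. Of the 6 defensin-like and cysteine-rich genes of the list that could be tested, 1 was higher (LCR59, beside 0.188% of all probe sets), 1 was lower (PDF2.1, beside 0.15%) and 4 did not pass, with a median of 0.52. AT3G24510 and AT5G54220 were not on that list, which was taken by gene symbol.

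EXPA21 was also higher in the lethal cross. It encodes an expansin, a protein that loosens cell walls. Its signals were 193 and 108 in 2xX4x and 1218 and 1203 in 2xX6x, a difference of 3.00 ± 0.39 (limma adjusted p = 0.00839), or 8.03-fold. Among 15 expansin genes tested, EXPA21 was the one that passed, beside 0.188% of all probe sets called higher. Of the 15, 10 had a difference above 0, beside 48.4% of all probe sets, and the median was 0.50. EXPB3 with 101 and 149 against 368 and 279, and EXPA24 with 13.4 and 3.5 against 31.9 and 24.5, had the next largest differences and did not pass (limma adjusted p = 1.0 for both). AT5G58840 and AT5G58820 encode subtilisin-like proteases and lie close together on chromosome 5, with 1 gene between them in the gene table. AT5G58840 had signals of 10.5 and 3.6 in 2xX4x and of 133 and 226 in 2xX6x (3.69 ± 0.39, limma adjusted p = 0.00464). For AT5G58820 they were 4.3 and 3.0 against 75.7 and 149 (3.37 ± 0.45, limma adjusted p = 0.0102). SBT5.4, a subtilisin-like protease taken from the list by its symbol, had 46.4 and 35.5 against 136 and 200 and missed the threshold (1.84 ± 0.34, limma adjusted p = 0.0665), and none of the 6 tested genes of that list passed. AT4G23520, a cysteine proteinase gene, was at 7.3 and 8.4 in the viable and at 74.2 and 75.7 in the lethal cross (2.43 ± 0.37, limma adjusted p = 0.0179). AT1G73610, a GDSL lipase-like gene, had 51.7 and 26.2 against 517 and 530, which was an 11.9-fold difference (limma adjusted p = 0.00651).

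The largest difference of all belonged to AT1G31250. In 2xX4x its signals were 1.8 and 0.8, the level seen in 2xX2x (1.3 and 1.2), and in 2xX6x they were 303 and 400 (5.36 ± 0.56, limma adjusted p = 0.00464). AT2G15340 had 9.5 and 28.7 in 2xX4x and 270 and 421 in 2xX6x (3.80 ± 0.57, limma adjusted p = 0.0178). AT3G03240 was at 23.3 and 27.4 against 247 and 203 (2.82 ± 0.36, limma adjusted p = 0.00824), AT4G32105 at 122 and 83.3 against 624 and 1090, and AT1G35183 at 3.4 and 4.7 against 66.6 and 74.2. Of the higher genes AT3G05460 lay closest to the threshold, with 47.1 and 48.3 against 301 and 422 (2.72 ± 0.49, limma adjusted p = 0.0493).

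**Figure D2:**
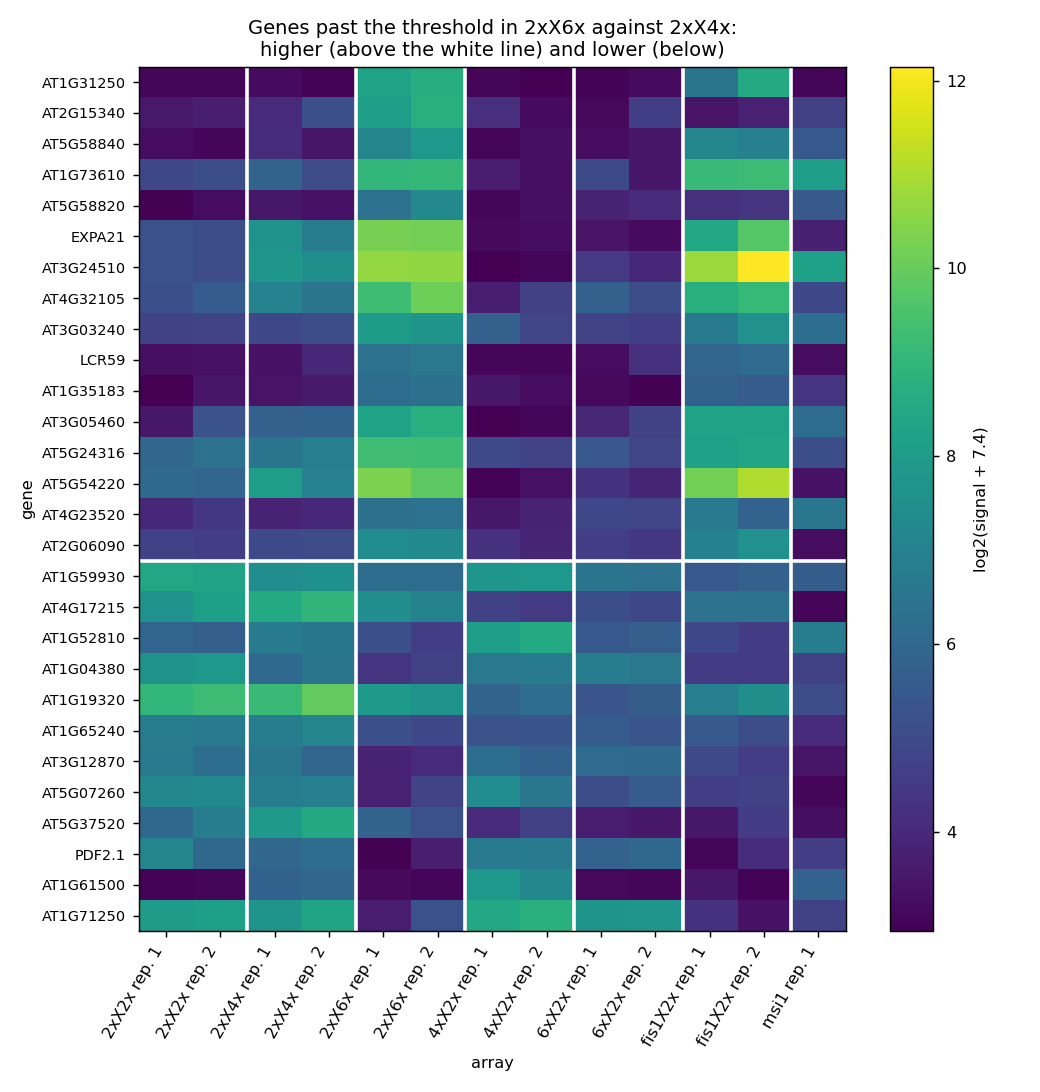
Log2(signal + 7.4), as colour, of the 28 named genes (rows, from the largest positive to the largest negative difference) on all 13 arrays (columns, with white lines between groups). The 2 arrays of 2xX6x are bright above the horizontal line and dark below it, and the fis1X2x arrays are so for most of the same rows, with AT2G15340 among the exceptions.

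The genes lower in the lethal cross included another GDSL lipase-like gene, AT1G71250. Its signals were 204 and 310 in 2xX4x and 5.3 and 30.9 in 2xX6x, a difference of -3.55 ± 0.46 (limma adjusted p = 0.00839), while 2xX2x had 253 and 275. AT1G65240, which encodes an aspartyl protease, fell from 108 and 134 to 29.0 and 23.3 (-1.93 ± 0.26, limma adjusted p = 0.00972). Both genes thus had opposite signs to lipase-like and protease genes described above. AT1G04380 and AT1G52810, both annotated as 2-oxoglutarate-dependent dioxygenases, had 61.1 and 81.9 against 13.4 and 18.8, and 97.1 and 84.8 against 28.9 and 17.1 (limma adjusted p = 0.0144 and 0.0332). AT1G19320, a thaumatin-like gene, was bright in both crosses, with 570 and 972 in 2xX4x and 233 and 189 in 2xX6x (-1.79 ± 0.31, limma adjusted p = 0.0423). AT5G07260 was at 107 and 114 against 6.6 and 21.3, AT3G12870 at 86.0 and 54.2 against 7.2 and 9.3, and AT5G37520 at 238 and 363 against 50.8 and 30.2 (limma adjusted p = 0.0149, 0.0128 and 0.0263). The smallest difference that passed was that of AT1G59930, at 169 and 184 against 65.3 and 66.4 (-1.32 ± 0.22, limma adjusted p = 0.0277), on a probe set whose name marks possible cross-hybridization.

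AT1G61500 was lower in 2xX6x than in 2xX4x while its 2xX6x signals were as low as in 2xX2x. This S-locus lectin receptor-like kinase gene had signals of 48.4 and 55.5 in 2xX4x and of 1.7 and 1.2 in 2xX6x (-2.74 ± 0.41, limma adjusted p = 0.0158). In 2xX2x they were 0.7 and 1.1, in 6xX2x 1.4 and 1.2 and in fis1X2x 4.3 and 0.7, whereas the other cross with a tetraploid parent, 4xX2x, had 224 and 145. The unannotated probe set 263174_at, chosen here after its values were seen, was likewise high in both crosses with a tetraploid parent, at 3182 and 3515 in 2xX4x and 4045 and 5597 in 4xX2x, against 435 and 366 in 2xX6x, 255 and 515 in 2xX2x and 221 and 557 in 6xX2x. In fis1X2x, a cross without tetraploid parents, it reached 5806 and 6828, and on the msi1 array it was 5591. Both tetraploid parents were C24, and the tetraploid mother carried A9-barnase as the diploid one did. AT4G17215 had 370 and 497 in 2xX4x against 167 and 125 in 2xX6x (limma adjusted p = 0.0493), with 192 and 285 in 2xX2x between them, and AT5G37520 had 59.3 and 108 in 2xX2x, also between its values in the other crosses.

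The higher genes took different positions in the viable cross. EXPA21 had 29.8 and 27.7 in 2xX2x, 193 and 108 in 2xX4x and 1218 and 1203 in 2xX6x, so that the arrays were higher at each step. The step from 2xX4x to 2xX6x also changed the accession of the father. AT3G24510 followed the same order with 30.6 and 27.7 in 2xX2x, and AT5G54220 with 62.4 and 54.9. AT1G31250 and AT4G23520 did not show this order. Their 2xX2x signals were 1.3 and 1.2, and 8.2 and 14.2, close to those in 2xX4x. AT3G03240 kept the order by a small margin, at 20 and 21.3 in 2xX2x and 23.3 and 27.4 in 2xX4x. These comparisons share the 2xX4x arrays that helped to choose the genes, so the order is given as a description.

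**Figure D3:**
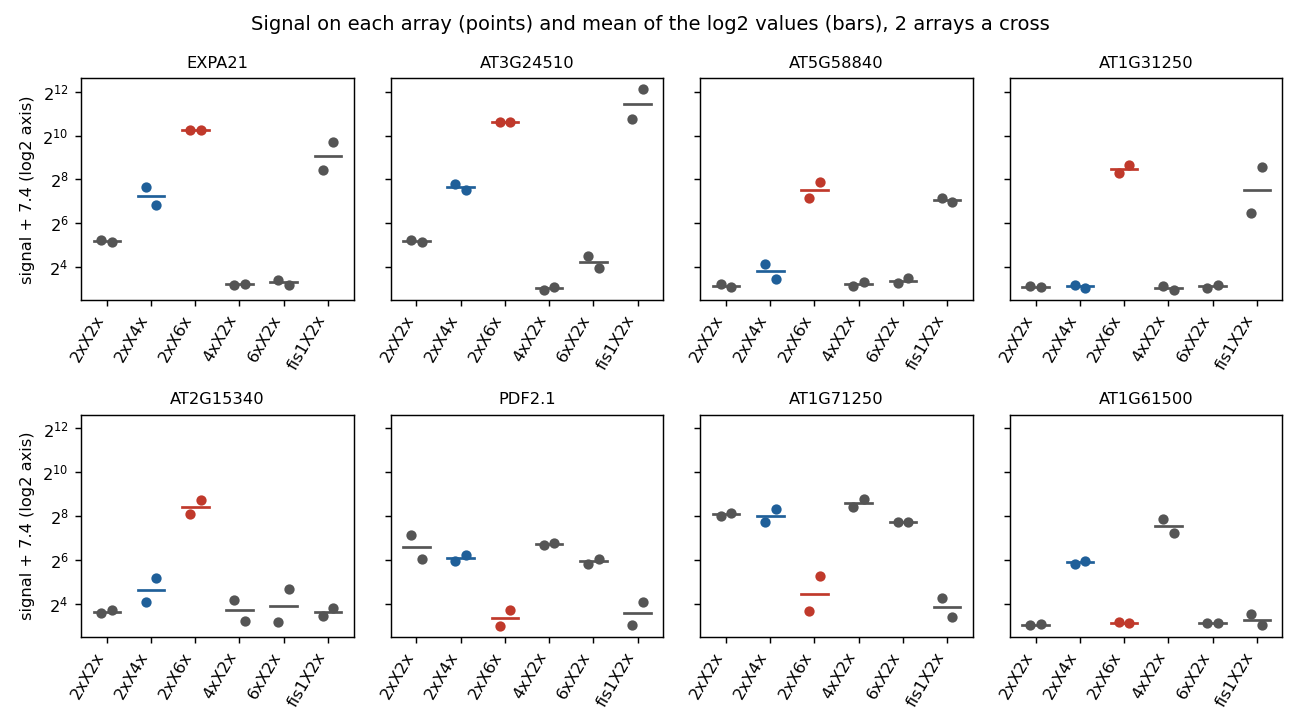
Signal plus 7.4 on a log2 axis for 8 genes in the 6 replicated crosses, with 1 point per array and a bar at the mean of the 2 log2 values (2xX4x blue, 2xX6x red). EXPA21 and AT3G24510 stand between 2xX2x and 2xX6x in 2xX4x, AT1G31250 is at the floor of the array in every cross but 2xX6x and fis1X2x, and AT1G61500 is above it only in 2xX4x and 4xX2x.

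The fis1X2x cross gave another lethal seed with a diploid father. Its difference from 2xX2x shares no array with that of 2xX6x and 2xX4x, but both tests took their spread from all replicated arrays. The same spread helped to choose the sets and to call them here, so the counts below are not independent. The median differences do not use this spread. With the compared arrays alone, 136 instead of 348 probe sets were called in fis1X2x against 2xX2x, and the chosen sets were not counted among them. In the fit of all replicated arrays, 0.901% of all probe sets were called higher in fis1X2x than in 2xX2x and 1.28% lower. Of the 30 sets higher in 2xX6x, 24 (80%) were also called higher in fis1X2x and none lower, with a median difference of 2.88. Of the 24 sets lower in 2xX6x, 21 (87.5%) were called lower in fis1X2x and 1 higher, with a median of -2.95. The exception was 263174_at. With each of the 4 arrays left out in turn, 19 to 22 of the higher and 16 to 19 of the lower sets were still called in the same direction. The mothers differed in accession there, Ler against C24, and the summed pollen marker signal was 1086 and 520 in fis1X2x against 248 and 112 in 2xX2x, whose part in these counts was not tested.

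In fis1X2x and 2xX6x some of the genes had close levels. AT1G73610 was at 553 and 605 in fis1X2x, where 2xX6x had 517 and 530 and 6xX2x 24.7 and 4.0, and AT5G58840 was at 136 and 118, where 2xX6x had 133 and 226. AT3G24510 reached 1729 and 4532 in fis1X2x, which was 76.9-fold above 2xX2x (limma adjusted p = 3.8e-05). PDF2.1 and AT1G71250 were as dim in fis1X2x as in 2xX6x, at 0.9 and 9.7, and at 12 and 3.2 (limma adjusted p = 0.00387 and 0.000659 against 2xX2x), whereas the lethal cross 6xX2x had 49.8 and 57.9, and 202 and 206. AT2G15340 had no such counterpart. Its fis1X2x signals were 3.4 and 6.5, which overlapped with the 4.6 and 5.6 of 2xX2x (limma adjusted p = 0.99), beside 270 and 421 in 2xX6x. AT5G58820 had 10.7 and 13.1 in fis1X2x, which did not pass either (limma adjusted p = 0.324), although its neighbour AT5G58840 did. Whether these genes differ between 2xX6x and fis1X2x was not tested.

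**Figure D4:**
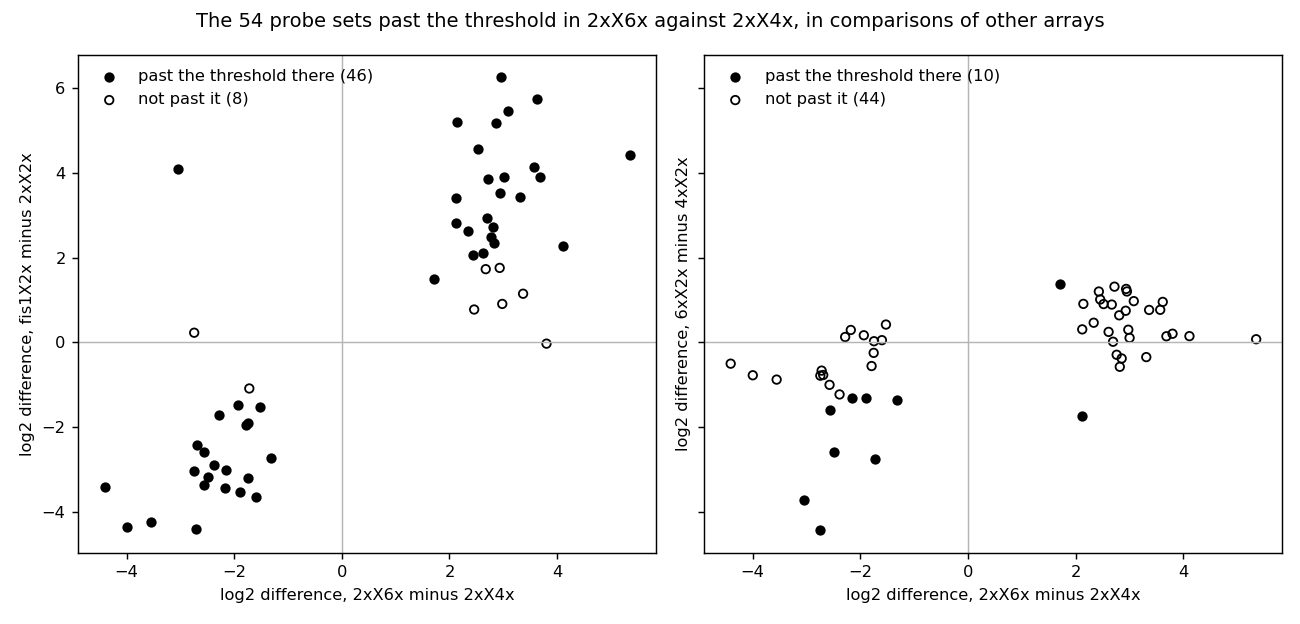
Log2 differences of the 54 probe sets in 2xX6x against 2xX4x (horizontal axes), set against fis1X2x minus 2xX2x (left) and 6xX2x minus 4xX2x (right), 1 point per probe set and filled where it passed the threshold in the second comparison. On the left 45 filled points share their sign and 263174_at does not, and on the right the higher sets have a median of 0.55 with 1 filled point on either side of 0.

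The same step in ploidy and accession, from tetraploid C24 to hexaploid Col-1, was also made through the mother. In 6xX2x against 4xX2x, 1.6% of all probe sets were called higher and 1.37% lower. Of the 30 sets higher in 2xX6x, 1 was called higher in 6xX2x and 1 lower, 25 had a difference above 0 and the median was 0.55. The share above 0 and the median over all probe sets were not computed for this comparison. Some of the sets, such as AT1G31250 and EXPA21, were near the floor in both crosses, where a sign means little. The mothers there differed in A9-barnase as well, which the 4xX2x mother carried and the 6xX2x mother did not. The 6xX2x mother was emasculated before pollination instead. The silique wall and seed coat are tissue of the mother, so this step changed them too, whereas the step through the father did not. AT1G31250 had 0.8 and 1.8 in 6xX2x, and AT5G58840 had 2.2 and 3.8 on the arrays with a hexaploid Col-1 mother. EXPA21 was at 3.4 and 1.8 in 6xX2x and at 1.7 and 2.0 in 4xX2x, below its 2xX2x signals. Of the 24 sets lower in 2xX6x, 8 (33.3%) were also called lower in 6xX2x, among them AT1G59930, AT1G52810, AT5G07260 and AT1G61500, and none was called higher. Without the first 6xX2x array, whose actin ratio stood apart, 4 of these 8 were called, with AT1G52810 and AT1G61500 still among them, and the 2 calls among the higher sets were lost. AT1G52810 had 267 and 378 in 4xX2x and 37.3 and 45.3 in 6xX2x.

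Whether the step through the father differed from that through the mother was tested directly as an interaction. The step through the mother also changed the maternal tissues of the silique, A9-barnase and emasculation. A difference between the steps cannot be told apart from these. It passed for 59 probe sets (0.369%), of which 11 belonged to the 54, 9 of them higher and 2 lower in 2xX6x. Since the 54 were chosen for their step through the father, this share is given as a description. With each of the 8 arrays left out in turn, 0 to 11 of the 54 passed, 0 without 2xX4x replicate 2 and 3 without the first 6xX2x array. The named genes were AT1G31250, AT5G58840, AT3G03240, AT5G24316 and AT1G65240. AT5G24316 rose through the father as given above and was at 24.1 and 21.1 in 4xX2x and 36.2 and 21.7 in 6xX2x, and AT1G65240 was at 32.3 and 33.1 and at 41.4 and 34.3 in the same crosses. EXPA21 missed the threshold of this test (limma adjusted p = 0.0666), as did AT3G24510 (limma adjusted p = 0.313).

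Type I MADS-box genes encode transcription factors, several of which act in the endosperm. Of 11 tested, none passed and 7 had a difference above 0, beside 48.4% of all probe sets. Their median was 0.55, against -0.01 over all probe sets. AGL62, which holds back cell formation in the endosperm, had 16.4 and 7.5 in 2xX4x and 54.5 and 33.5 in 2xX6x. Its arrays did not overlap, as was the case for 31.7% of all probe sets. The difference of 1.42 ± 0.43 did not pass (limma adjusted p = 0.527), whereas in fis1X2x against 2xX2x AGL62 did (limma adjusted p = 0.0356). Among the 11 tested genes, AGL87 had the largest difference, in the other direction, with 213 and 185 against 64.3 and 73.2 (-1.44 ± 0.33, limma adjusted p = 0.178). AT5G26630 was at 30.8 and 50.5 against 104 and 94.1, and AGL29 and AGL80, of which AGL80 acts in the central cell, had differences of 1.11 and 1.05 (limma adjusted p = 0.836, 1.0 and 1.0). AGL28 had 13.5 and 9.1 in 2xX4x and 31.7 and 18.7 in 2xX6x, and AT4G36590 had 251 and 117 against 380 and 87.7, with overlapping arrays. These last genes, AGL62 and AT2G30810 are the 4 genes measured by qRT-PCR in the study that have a tested probe set of their own. IKU1, a regulator of endosperm growth, differed by 0.23 and did not pass.

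Of the imprinted genes, 3 could be tested and none passed, with a median of 2.14. MPC, which encodes a protein resembling the end of poly(A)-binding proteins, had 28.1 and 32.4 in 2xX4x and 162 and 154 in 2xX6x (2.14 ± 0.44, limma adjusted p = 0.104). AT1G49290 was at 2.0 and 2.1 against 28.3 and 44.4 (2.19 ± 0.45, limma adjusted p = 0.112), and AT3G23060 at 25.7 and 32.9 against 52.4 and 58.0 (limma adjusted p = 1.0). In all 3 the arrays of the crosses did not overlap, as was the case for 31.7% of all probe sets. MPC and AT1G49290 passed in fis1X2x against 2xX2x (limma adjusted p = 0.0011 and 0.0213). AT2G30810, a gibberellin-regulated gene of the hormone list, was at 1582 and 1212 against 3828 and 4131, and did not pass (1.52 ± 0.34, limma adjusted p = 0.156). None of the 4 hormone genes tested passed.

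The tested genes of the cell cycle, storage and transport lists gave no call. Many listed genes could not be tested: 5 of 35 mitosis and cytokinesis genes were, and 1 of 15 DNA replication genes. All 5 tested mitosis and cytokinesis genes had a lower mean in 2xX6x, with a median of -0.53. AUR1, an Aurora kinase gene, was at 108 and 143 against 87.3 and 51.5 (limma adjusted p = 0.753). Of the 5 core histone genes 2 had a difference above 0, the median was -0.26, and HTB1 was at 315 and 341 against 190 and 174. None of 14 sugar transporter genes passed, although 11 had a difference above 0. Over all probe sets 48.4% were above 0. SWEET8, a sugar efflux carrier gene, had 182 and 234 against 580 and 479 (1.32 ± 0.33, limma adjusted p = 0.258). AT4G02300, of the pectin methylesterase list, went from 3.5 and 5.7 to 57.9 and 58.0 without passing (limma adjusted p = 0.21). The 16 glycosyl hydrolase genes had a median of -0.02, with GH9C1, an endoglucanase gene, at 49.8 and 71.0 against 15.1 and 29.8 (limma adjusted p = 0.277). The 6 seed storage and oil body genes had a median of 0.05 and the 4 vacuolar processing enzymes of the cell death list one of -0.05, and none of either list passed.

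A list of 4 genes taken as linked to accession was looked at because the fathers differed. The list was chosen with earlier results of these data known, so the values in 6xX2x against 4xX2x are given as a description. ECS1 had signals of 10 and 10.5 in 2xX4x and of 16.2 and 11.2 in 2xX6x, a difference of 0.25. In 6xX2x against 4xX2x its difference was 7.57 (limma adjusted p = 0.000197). QQS differed by 0.21 and by 3.3 in these comparisons. The 6xX2x and 4xX2x mothers differed in accession, Col-1 against C24, but also in ploidy and in A9-barnase, which cannot be told apart. AT1G47400 had 25.3 and 15.7 in 2xX4x against 63.1 and 117 in 2xX6x, the largest difference of the 4 genes between these crosses. It did not pass (1.77 ± 0.63, limma adjusted p = 0.85). AT2G25510 had 114 and 23.2 in 2xX4x against 37.6 and 191 in 2xX6x, with overlapping arrays, and did not pass.

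**Figure D5:**
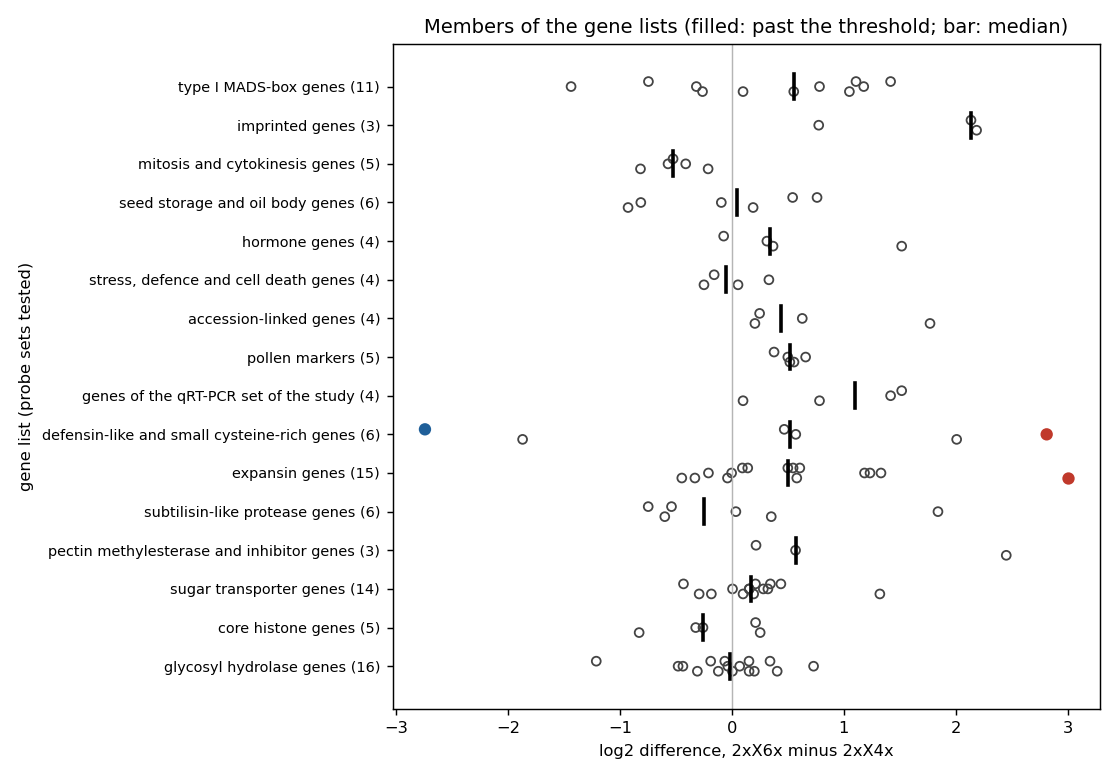
Log2 difference of 2xX6x minus 2xX4x (horizontal axis) for each tested member of the gene lists with at least 3 such members (vertical axis, with their number), with a bar at each list's median. Filled points passed the threshold, which were LCR59 and EXPA21 (red) and PDF2.1 (blue), and the 5 mitosis and cytokinesis genes all lie below 0.

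Some large differences did not pass. There were 20 probe sets with an adjusted p between the threshold and 0.1, of which 11 were higher in 2xX6x. The genes given here were chosen after their values were seen. TBL41, of a family known for acetylating cell wall polysaccharides, had 42.6 and 67.0 in 2xX4x against 219 and 241 in 2xX6x (limma adjusted p = 0.0687). AT3G26590, a MATE efflux carrier gene, was at 46.4 and 30.6 against 2.7 and 2.0 (limma adjusted p = 0.0594). AT5G38180 went from 956 and 806 in 2xX4x to 32.7 and 93.9 in 2xX6x, and was at 1710 and 1816 in 2xX2x and 17.9 and 15.1 in fis1X2x. It did not pass (-3.80 ± 0.84, limma adjusted p = 0.145). AT5G38160 had 1277 and 1478 against 45.7 and 513. AT4G27280 had 37.2 and 42.5 against 44.9 and 1421, so 1 array of 2xX6x set its mean difference of 2.54.

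The count of calls rested on having both arrays of each cross. Without the second 2xX4x array or without the first 2xX6x array it fell from 54 to 0, with 302 and 801 probe sets under an unadjusted p of 0.05 in limma, and without the first 2xX4x or the second 2xX6x array it was 9 and 10. The differences of the 54 then lay between 0.766 and 1.23 times the full value. Their direction could not change, since they were chosen with no overlap. Where a cross was left with 1 array, its spread was taken from the other groups.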

How the data were processed

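RNA of whole siliques had been hybridized to ATH1 arrays. The deposited values are linear signal intensities. The authors computed them with MAS5 and scaled each array. Detection calls were not used here, and neither were the change values between pairs of arrays that the study used. The table holds 22810 probe sets. The 64 AFFX controls were left out of every test, and the 63 signals of 0 were kept. ATH1 probes were designed on Columbia sequence, so that C24 and Ler transcripts can hybridize less well.

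Signals were transformed as log2(signal + 7.4), the offset being the 20th percentile of all signals. A probe set was kept if at least 2 of the 13 arrays had it above their 40th percentile, which left 15982 and removed 6764. One mean per cross was fitted to the 12 replicated arrays in R 4.3.3 by lmFit, contrasts.fit and eBayes with trend of limma 3.58.1, with 6 residual and 4.92 prior degrees of freedom. Tests were two-sided, with Benjamini-Hochberg adjustment over all kept probe sets and a threshold of 0.05. Replicates are biological samples according to the labels, and with 2 a cross their number limits the precision. Tested on simulated data for 2xX6x against 2xX4x over 15982 probe sets, the fit found 6% of log2 changes of 1, 80% of those of 2, 92% of those of 3 and 86% of those of 4, making 132 true and 9 false calls. Apart from these changes, the simulation gave all crosses the same mean and the same normal spread, and set negative signals to 0. In the data the spread of replicates differed between crosses, so these shares hold for the simulated setting.

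Genes came from the platform annotation (13513 probe sets with 1 gene, 503 with several, 8730 with none). Names, biotypes and neighbours came from the TAIR10.1 gene table, in which 13436 single-gene sets had a locus. Named are single-gene sets past the threshold without overlap, members of 23 gene lists with the largest differences, and genes that the study measured by qRT-PCR. The members and lists were chosen with earlier results of these data known. Lists are described by counts and medians. Some were taken by gene symbol, from which the peptide deformylase genes were removed since they share the letters of the plant defensins, and the lipid transfer protein and GDSL lipase-like lists held no gene with a probe set of its own. Alternatives were other offsets, filters, normalizations, variance models, array weights, the compared arrays alone, size alone, a replicate block and leaving out each array in turn. Figures were drawn with matplotlib 3.10.9, numpy 2.4.6 and pandas 2.3.3 in Python 3.11.15.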

Additional observations from a re-analysis of the deposited data

Results flagged for a closer look

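The step from tetraploid C24 to hexaploid Col-1 differed between father and mother, by the interaction test in limma, for 59 probe sets and for 5 of the genes named above. Through the mother it also changed the maternal tissues of the silique, A9-barnase and emasculation, which cannot be told apart. The step through the father minus that through the mother was 5.28 on the log2 scale for AT1G31250 (limma adjusted p = 0.0233), 3.54 for AT5G58840 (limma adjusted p = 0.0249), 3.40 for AT3G03240 (limma adjusted p = 0.0233), 2.37 for AT5G24316 (limma adjusted p = 0.0305) and -2.10 for AT1G65240 (limma adjusted p = 0.0408). With each of the 8 arrays left out in turn, AT1G31250 kept a difference between 5.09 and 5.48 and passed in 1 of 8 fits, and AT3G03240 kept 2.94 to 3.85 and passed in 2. AT5G24316 passed in 2 of 8 as well, and AT5G58840 and AT1G65240 in 1 each.

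The unreplicated msi1 array, which entered no comparison, had a signal at least 2 on the log2 scale above both 2xX2x arrays for 6 of the named genes. How many of all probe sets did so was not counted, so this number cannot be read as a trait of these genes. AT1G73610 was at 259 there, against 23.5 and 28.2 in 2xX2x, and AT3G24510 at 290, against 30.6 and 27.7. AT4G23520 was at 86.4, AT5G58820 at 38.8 and AT5G58840 at 37.3, against no more than 14.2 in 2xX2x. AT1G61500, lower in 2xX6x than in 2xX4x, was at 49.9. EXPA21 was at 6.0 and AT5G54220 at 3.2, so that these higher genes of 2xX6x were dim in unfertilized msi1 siliques. With 1 array these differences were not tested.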

How the results depend on the processing

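The 54 calls of 2xX6x against 2xX4x became 17 with no offset (6 higher, 11 lower) and 123 with array weights, of which 54 were among the first. A rule of size alone, at least 0.6 on the log2 scale without overlap, gave 1242 probe sets (7.77%, 611 higher and 631 lower). Leaving out 1 array of the compared crosses gave 0 to 10 calls, and leaving out 1 of another cross 45 to 59. The 474 calls of 6xX2x against 4xX2x became 241 with array weights, 260 with the compared arrays alone, 104 without 6xX2x replicate 1 and 104 to 706 over all arrays left out, the highest without 6xX2x replicate 2. The 348 calls of fis1X2x against 2xX2x became 136 with the compared arrays alone and 186 to 219 with an array left out. The 59 interaction calls became 17 with no offset, 30 above the 60th percentile and 3 to 106 with an array left out, the lowest without 2xX4x replicate 2 and the highest without 6xX2x replicate 2. The cause of these changes was not tested.

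Other filters, quantile normalization, median centring, other variance models and an offset 2 times as large kept the main count within 1.5 times. None of the named genes changed direction, which their choice without overlap fixes where an array is left out, and 187 of 643 values under the alternatives no longer passed. Replicate numbers were checked for pairing: the deviations of the same-numbered 2xX4x and 2xX6x arrays correlated with r = 0.285, and those of 2xX2x with 2xX4x and 2xX6x with 0.342 and 0.412, but the labels name no shared batch and there are 2 pairs. With the replicate block the count was 50, of which 48 were among the 54. In the simulation, with equal spread in all crosses, changes of log2 size 1 were mostly out of reach at 2 arrays a cross.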
